A study of Mus musculus with 5 samples.

Results

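The genes described are 8 that belong to the ATF4 response and to the synthesis of serine and asparagine: Atf4, Trib3, Psat1, Phgdh, Psph, Shmt2, Asns and Slc3a2. They were chosen by symbol, and every spotted cDNA probe that the platform annotation gives to exactly 1 of these symbols was used. This gave 11 of 20205 probes and 8 of 9669 named genes, with a pair of probes each for Atf4, Phgdh and Shmt2. RNA of NIH3T3 cells, an immortalised mouse fibroblast line, was compared with RNA of NIH3T3 cells that constitutively overexpress human HER-2/NEU (ERBB2) from the cytomegalovirus (CMV) promoter. The parental cells were un-transfected and not a vector control. The labels do not say whether the transfected line is a clone or a pool. Both lines grew in Dulbecco's modified Eagle's medium with fetal calf serum, L-glutamine, penicillin and streptomycin. Each of the 5 arrays held both lines in different dyes, 3 from preparation A (A1, A2, A3) and 2 from preparation B (B1, B2). Erbb2-transfected cDNA carried Cy3 on A1, A2 and B1 and Cy5 on A3 and B2.

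Every value is the log2 of the signal in Erbb2-transfected cells over that in NIH3T3 cells, so that 1 is a doubling, and values in a row of 3 and 2 follow the array order A1, A2, A3 and B1, B2. The direction is likely rather than settled: Cy5 was taken as the numerator of the deposited ratios because it is the first channel in the labels. Under the opposite reading every value below changes sign and keeps its size. It is not stated that the preparations came from separate cultures, so p-values measure only the spread between these samples, which may be technical. The arrays held values for 5368 (A1) to 17463 (B1) probes, and their number limits the precision. Ratios carry no level, so the fibroblast identity of the cells could not be checked by the presence of markers. Of 6 tested fibroblast markers, 4 were lower in Erbb2-transfected cells by limma, the matrix genes Col1a1 (-4.93 ± 0.75, SD, n = 2), Fn1 (-4.61 ± 0.13, SD, n = 2), Col1a2 (-3.97 ± 0.14, SD, n = 2) and Sparc (-2.46 ± 0.98, SD, n = 2), while Vim (0.47) and S100a4 (-0.01) did not pass. Of 3 tested markers of epithelium, leukocytes, endothelium or muscle, 0 passed. Among all features in that test, 4.54% were lower and 2.25% higher. The part of these marker shifts in the results below was not tested. In bulk RNA, fewer cells of a type and less RNA per cell cannot be told apart.

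ATF4 is a basic leucine zipper transcription factor. Its messenger is translated more when the initiation factor eIF2alpha is phosphorylated, as by GCN2 when amino acids run short or by PERK when unfolded proteins build up in the endoplasmic reticulum. ATF4 then binds composite C/EBP-ATF response elements and raises genes of amino acid synthesis, uptake and tRNA charging. Since much of this control acts on translation, the Atf4 messenger itself need not follow the activity of the protein. PHGDH, PSAT1 and PSPH make serine from a glycolytic intermediate in that order, SHMT2 splits serine into glycine and a folate-bound one-carbon unit in mitochondria, and ASNS makes asparagine from aspartate and glutamine. SLC3A2 is the heavy chain that carries amino acid exchangers such as SLC7A5 to the cell surface, and TRIB3 is a pseudokinase that restrains ATF4 and CHOP.

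The core of the response element was found in Asns and Trib3. Their ratios lay farthest apart between preparations among the genes on 4 or more arrays, but in opposite directions. The difference of A from B was 1.46 in Asns, with 1 array of B, and -1.07 in Trib3. Neither passed, and a link of the element to the ratios was not tested. The core TGATGNAA was searched on both strands of RefSeq promoter windows of build GRCm38.p6, from 250 bases before to 50 bases after each start site. All 8 genes matched the table by symbol, with 9 windows in all, and the core was found in those of 2 genes. It is in 3.97% of all 32851 windows, or 1304 of them. The cyclic AMP element TGACGTCA, which does not contain that core, was in none of the 9 windows and in 1.79% of all. In Asns the match spans bases -23 to -16 from the start site (shown is chr6:7693210-7693309, minus strand), and in Trib3 bases 15 to 22 after it, on the opposite strand (chr2:152344028-152344057, minus strand). Capitals mark the match, and both are written 5′ to 3′ along the gene.
Asns: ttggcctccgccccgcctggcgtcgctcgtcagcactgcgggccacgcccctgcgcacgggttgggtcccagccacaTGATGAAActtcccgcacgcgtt
Trib3: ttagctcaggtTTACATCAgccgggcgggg
A match is a run of letters in a window and says nothing about binding in these cells.

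None of the 8 genes passed limma's test of Erbb2-transfected against NIH3T3 cells. Atf4 and Psph were slightly above 0 on every array, by at most 0.46 and 0.78. Trib3 was below 0 on the 3 arrays of preparation A and near 0 in preparation B, and Asns was above 0 on the 3 arrays of A and below 0 on the 1 array of B with a value. Of the 4892 features with a value in both dye orientations of both preparations, 332 passed at an adjusted p under 0.05 (6.79%), 110 higher (2.25%) and 222 lower (4.54%). Of the 8 genes, 6 had such values and entered this test, and 0 passed, with 0 at an unadjusted p under 0.05 against 22.9% of all features. A count of 0 in 6 genes cannot be told apart from a background of 6.79%. The median of the 6 estimates was 0.18, and that of all features was -0.02.

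**Figure D1:**
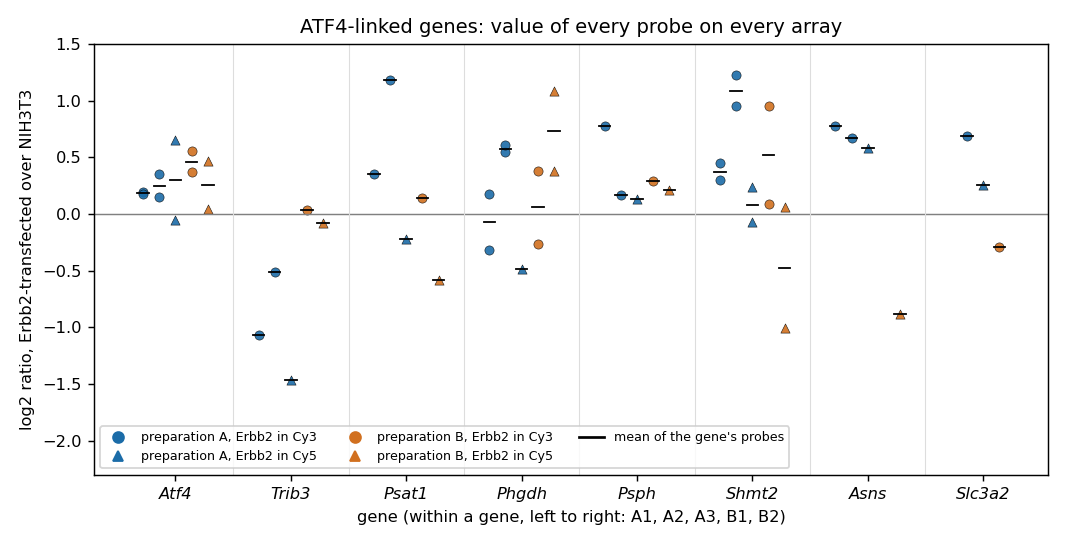
The log2 ratio, Erbb2-transfected over NIH3T3 (vertical axis), is plotted for each of the 11 probes of the 8 genes (horizontal axis) on each array, with blue for preparation A, orange for preparation B, circles for Erbb2 in Cy3, triangles for Erbb2 in Cy5 and a black bar for the mean of a gene's probes. Trib3 lies between -1.46 and -0.51 in preparation A and between -0.08 and 0.04 in B, while the probe means of Atf4 stay between 0.19 and 0.46 and its single probes between -0.06 and 0.65.

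Atf4, the transcription factor, stood at 0.19, 0.25 and 0.30 in preparation A and at 0.46 and 0.26 in B. All 5 arrays were thus above 0, as they were for 10.6% of the 2872 features with a value on each array. The preparation means were 0.31 ± 0.07 (SD, n = 2), a 1.24-fold ratio, with a 95% confidence interval from 0.91-fold to 1.69-fold and an adjusted p of 0.404 by limma. Between its highest and lowest array Atf4 spanned 0.28, and 1.01% of the features spanned less. That narrow span is one of probe means: on A3 its probes had 0.65 and -0.06, and on B2 0.47 and 0.05. Up to a constant of the array, the dye ratio of the first probe was 37 over 32 scanner units on A3. On B2 it was 54 over 53, and that of the second probe 117 over 154. Multiples of these fit equally, so the signals there may have been low.

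Trib3, the pseudokinase, stood at -1.07, -0.51 and -1.46 in preparation A, while B was near 0 at 0.04 and -0.08. The preparations did not overlap, which held for 1 of the 6 genes measured on all arrays and for 21.0% of all features so measured; A lay wholly below B in 10.4%. The ratio averaged -0.57 ± 0.78 (SD, n = 2) and did not pass (adjusted p = 0.22 by limma), with an interval from 0.45-fold to 1.00-fold. The difference of preparation A from B, with the dye as a term, was -1.07 with a standard error of 0.39 and an interval from -1.89 to -0.25. It was among the 6.75% of features with an unadjusted p under 0.05, and it did not pass (adjusted p = 0.644 by limma). Between preparations 1 of 4892 features passed (0.0204%), an unnamed probe.

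None of the serine enzymes passed, and Psat1, Shmt2 and Phgdh spanned 1.22 or more between their highest and lowest arrays, against 0.65 for Psph and a median of 1.07 over all features. Psat1, the aminotransferase of the second step, stood at 0.35, 1.18 and -0.22 in preparation A and at 0.14 and -0.58 in B. Its estimate was 0.03 ± 0.35 (SD, n = 2), with an interval from 0.73-fold to 1.41-fold (adjusted p = 0.957 by limma). In both preparations Psat1 was lower where Erbb2-transfected cDNA carried Cy5, by 0.99 in A and by 0.72 in B. The sign of a Psat1 value thus followed the dye on every array: the 3 arrays with Erbb2 in Cy3 were above 0 and the other 2 below. Up to a constant of the array, its dye ratio was 61 over 170 scanner units on A2. On A3 it was 98 over 155 and on B1 103 over 163. Multiples fit equally, so these signals may have been low. Without these values Psat1 did not enter the balanced test.

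Shmt2, the mitochondrial serine hydroxymethyltransferase, stood at 0.37, 1.09 and 0.08 in preparation A and at 0.52 and -0.47 in B. It averaged 0.22 ± 0.27 (SD, n = 2), with an interval from 0.84-fold to 1.60-fold (adjusted p = 0.59 by limma). Its values were also lower with Erbb2 in Cy5, by 0.65 in preparation A and by 1.00 in B. Its probes parted most in preparation B, at 0.96 and 0.09 on B1 and at -1.01 and 0.06 on B2.

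Phgdh, the dehydrogenase that opens the pathway, stood at -0.07, 0.58 and -0.49 in preparation A and at 0.06 and 0.73 in B. The average was 0.14 ± 0.36 (SD, n = 2), with an interval from 0.79-fold to 1.53-fold (adjusted p = 0.756 by limma). Its probes had opposite signs on A1, at 0.17 and -0.32, and on B1, at -0.26 and 0.38. Only 1 of the 2 had a value on A3. Phgdh differed from Psat1 and Shmt2 in its order over arrays, with B2 its highest array and theirs the lowest.

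Psph, the phosphatase of the last step, stood at 0.78, 0.17 and 0.13 in preparation A and at 0.29 and 0.21 in B. All arrays were above 0, with A1 apart from the other 4. The average was 0.28 ± 0.04 (SD, n = 2), with an interval from 0.89-fold to 1.65-fold (adjusted p = 0.465 by limma). None of the 4 genes of serine synthesis and use passed the test between preparations, with differences of A from B of 0.51 (Psat1), 0.36 (Shmt2), -0.42 (Phgdh) and 0.07 (Psph) and adjusted p of 0.906 or more by limma. Without A2 the difference was 0.29 for Psat1 and 0.20 for Shmt2.

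Over the 6 genes in the test, 4 were lower with Erbb2 in Cy5 in both preparations (Trib3, Psat1, Psph and Shmt2) and 0 were higher in both. Among all tested features 34.5% were lower and 27.5% higher in both. An additive dye effect cancels in the means above, which weigh both orientations equally. Its part in the spread was not tested.

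Asns, the asparagine synthetase, stood at 0.77, 0.67 and 0.58 in preparation A and at -0.88 on B2, with no value on B1. The arrays of preparation A, repeats of 1 preparation, lay close together and far from B2. On arrays with Erbb2 in Cy5, which compare like with like, the ratio was 0.58 on A3 against -0.88 on B2. Among features with values on 4 or more arrays, for which dye and preparation could both be estimated, Asns differed between preparations by 1.46 with a standard error of 0.58 (interval 0.19 to 2.74). Its adjusted p was 0.843 by limma, in a comparison where 2 of 6224 features passed (0.0321%) and 5.67% had an unadjusted p under 0.05, Asns among them. Taken over means of both preparations, without balance of dyes in B, the ratio was -0.11 ± 1.10 (SD, n = 2; adjusted p = 0.909 by limma), in a test that 241 of 11817 features passed (2.04%), 0.66% higher and 1.38% lower, with 16.2% at an unadjusted p under 0.05. The whole difference rests on array B2, the only array of preparation B with a value for Asns. Over the features that 2 arrays share, B2 correlated at 0.27 with B1 and at 0.49 with A3, which had the same dye orientation. Its correlation was 0.26 with A1 and 0.16 with A2. Array B2 alone may thus not stand for preparation B.

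Slc3a2, the heavy chain of amino acid exchangers, had 0.69 on A2, 0.25 on A3 and -0.29 on B1, with no value on A1 or B2. Its sign differed between preparations like that of Asns, but no difference could be tested with 1 array of B and 2 of A in opposite dyes. The mean over both preparations was 0.09 ± 0.54 (SD, n = 2; adjusted p = 0.905 by limma). On A2 its dye ratio equalled, up to a constant of the array, 54 over 107 scanner units or a multiple.

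**Figure D2:**
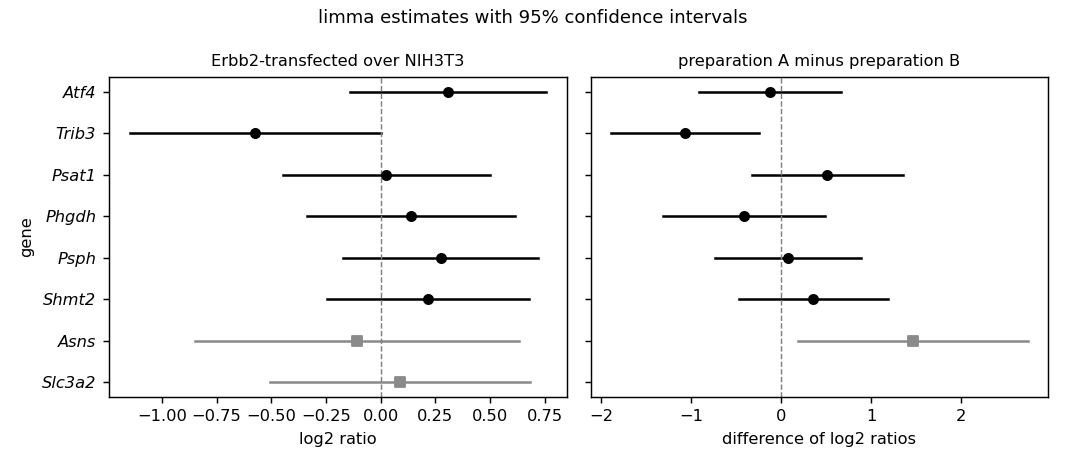
Estimates by limma (points) with 95% confidence intervals (lines) are given for each gene (vertical axis), on the left for Erbb2-transfected over NIH3T3 cells (log2 ratio) and on the right for preparation A minus preparation B (difference of log2 ratios). Black circles are genes with values in both dye orientations of both preparations and grey squares are genes with missing arrays. The intervals on the left all include 0, and on the right those of Trib3 (-1.89 to -0.25) and Asns (0.19 to 2.74) do not, before adjustment over all features.

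The intervals of the balanced test bound the ratios only under its model of 2 preparation means. For the 6 genes in it, a rise of more than 1.69-fold or a fall to less than 0.45-fold lay outside every interval. For 5 of them, all but Trib3, a fall to less than 0.73-fold did too. In the test with missing arrays allowed, the upper limits were 1.79-fold for Atf4, 1.80-fold for Psph and 1.78-fold for Shmt2. The lower limit for Psat1 was 0.72-fold there. The order of the estimates from Atf4 (0.31) through Psph (0.28), Shmt2 (0.22), Phgdh (0.14) and Psat1 (0.03) to Trib3 (-0.57) had neighbours closer than a standard error (0.20 to 0.26), apart from the step from Psat1 to Trib3.

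Of the 51 values of the 11 probes, 12 (23.5%) were, to within 6e-07 and up to a constant of their array, the log2 of a fraction whose terms are both whole and at most 300, against 41.2% of all values. Such a value, called a dim spot here, comes from background-subtracted signals that may be as small as those numbers, in the scanner's units. When the constant was shifted, between 1.20% and 1.61% of an array's values still matched. The lowest pairs were 17 over 26 for a Shmt2 probe on B1 and 24 over 31 for the other on A1. No value of Trib3, Psph or Asns matched.

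**Figure D3:**
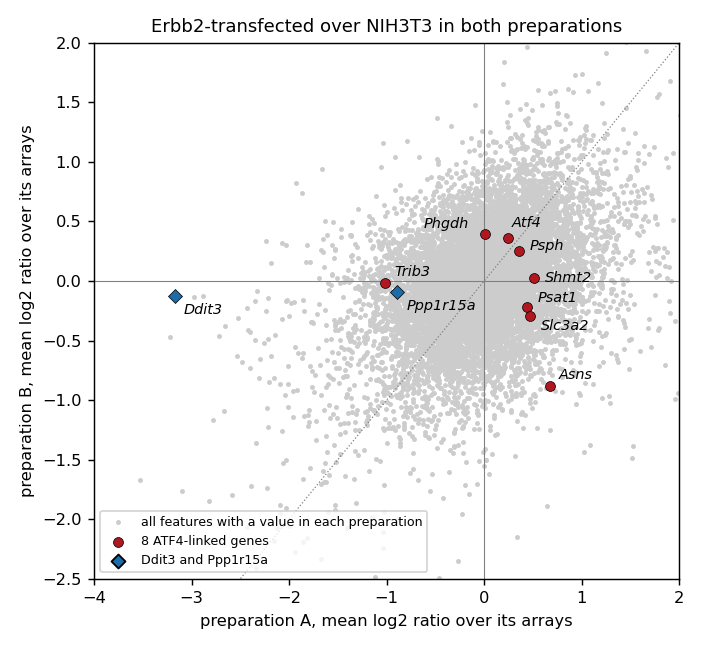
The mean log2 ratio over the arrays of preparation A (horizontal axis) is set against that of preparation B (vertical axis) for the 8 genes (red), Ddit3 and Ppp1r15a (blue diamonds) and 11817 features with a value in each (grey; 80 lie outside the axes); the dotted line marks equal values. Trib3 (-1.01 in A, -0.02 in B) and Ddit3 (-3.17 in A, -0.12 in B) lie to the left of the line, and Asns (0.67 in A, -0.88 in B) to its right.

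Of the regulators and partners of ATF4, no eIF2alpha kinase had a value. Ppp1r15a, Cebpg and Trib1 entered the balanced test and 0 of the 3 passed, against 6.79% of all features. With Cebpd and Ddit3, 5 genes had a value in each preparation, and all 5 were lower in A than in B, against 50.8% of all features. Ddit3, which encodes CHOP, stood at -3.26 on A1 and -3.08 on A2, and at 0.08 and -0.33 in preparation B, without overlap. Its difference of A from B was -3.25 with a standard error of 0.50 and did not pass (adjusted p = 0.109 by limma). Ppp1r15a, the GADD34 subunit that directs eIF2alpha dephosphorylation, stood at -0.99, -0.48 and -1.21 in preparation A and at -0.32 and 0.14 in B. Its difference of A from B was -0.81 with a standard error of 0.40 (adjusted p = 0.734 by limma). Both were chosen after their values were seen.

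Of 22 other ATF4 target genes with a value, 11 entered the balanced test, where 2 fell, 0 rose and 9 did not pass, against 4.54% lower and 2.25% higher among all features. Their median was 0.03. Ddit4, an inhibitor of mTOR signalling, had -1.74 on A2, -1.51 on A3, -0.96 on B1 and -1.64 on B2, all below 0 (mean -1.46 ± 0.23, SD, n = 2; adjusted p = 0.0018 by limma). Slc6a9, the glycine transporter GLYT1, had -1.31, -1.64 and -0.74 in preparation A and -0.83 and -0.43 in B (mean -0.87 ± 0.34, SD, n = 2; adjusted p = 0.0354 by limma). It was not called without A3 (adjusted p = 0.0711 by limma) or without B1 (adjusted p = 0.229 by limma), nor after scaling arrays to equal spread (adjusted p = 0.0723 by limma) or quantile normalization (adjusted p = 0.0552 by limma). With missing arrays allowed, Slc6a9 did not pass (adjusted p = 0.102 by limma), and Herpud1, of the degradation of misfolded proteins, did (adjusted p = 0.0372 by limma). Herpud1 had -2.35 and -1.96 on A1 and A2 and -0.81 on B1, and was not called without A2 (adjusted p = 0.109 by limma). Its call was also lost after scaling to equal spread, with robust variance estimates and without the dim spots described above (adjusted p 0.0512, 0.0602 and 0.149 by limma). All its arrays had Erbb2 in Cy3, so a dye effect cannot be told apart from its ratio.

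In the list of serine and glycine use and folate one-carbon metabolism, 6 genes entered the balanced test. Of these 0 passed, against 6.79% of all features, and the list median was 0.03. Mthfd2, the mitochondrial methylenetetrahydrofolate dehydrogenase that acts downstream of SHMT2, had 0.42, 1.09 and 0.06 in preparation A and 0.06 and 0.32 in B (mean 0.30 ± 0.15, SD, n = 2; adjusted p = 0.421 by limma). Mthfd1l, which releases formate from mitochondria, had 0.05, 0.50, 0.30, 0.05 and 0.44 in the same order (mean 0.27 ± 0.03, SD, n = 2; adjusted p = 0.483 by limma). Both were above 0 on all 5 arrays, as were 10.6% of the 2872 features with a value on each array. They were named from the list because they had 1 sign on every array, so keeping 1 sign was fixed by that choice. Neither passed.

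Of 3 tested enzymes of glutamine, glutamate, aspartate and proline, 1 fell and 0 rose, against 4.54% and 2.25% of all features. This was Glud1, the glutamate dehydrogenase of mitochondria, at -1.73, -1.21 and -1.82 in preparation A and -0.998 and -2.27 in B (mean -1.64 ± 0.01, SD, n = 2; adjusted p = 0.000594 by limma). All arrays were below 0. The SD is that of preparation means and does not show the spread between B1 and B2.

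Of 7 tested amino acid transporters, 2 fell, 1 rose and 4 did not pass, with a median of -0.14, against 4.54% lower and 2.25% higher among all features. Slc1a3, a glutamate and aspartate importer, had -1.76 on A2, -1.40 on A3, -0.95 on B1 and -0.67 on B2 (mean -1.19 ± 0.55, SD, n = 2; adjusted p = 0.0112 by limma). The second that fell was Slc6a9. Slc7a7, a light chain that pairs with SLC3A2 in the exchange of cationic and neutral amino acids, rose, with 0.97, 0.25 and 0.74 in preparation A and 1.48 and 0.84 in B (mean 0.92 ± 0.34, SD, n = 2; adjusted p = 0.0279 by limma). Its rise was not called without A3 (adjusted p = 0.124 by limma) or without B1 (adjusted p = 0.244 by limma), or with missing arrays allowed (adjusted p = 0.105 by limma). Scaling to equal spread and quantile normalization also ended the call (adjusted p 0.0855 and 0.0714 by limma). Without dim spots Slc1a3, Slc6a9 and Slc7a7 did not enter the balanced test.

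None of 6 tested cytosolic aminoacyl-tRNA synthetases passed, against 6.79% of all features, and their median was 0.10. Tars, for threonine, stood at 0.57 and 1.03 in preparation A and 0.41 and 0.24 in B, and Wars, for tryptophan, at 0.09 and 0.29 in A and 0.52 and 0.27 in B. Neither had a value on A3. With missing arrays allowed they had adjusted p of 0.306 and 0.61 by limma. Of the 13 synthetases with a value in each preparation, 9 were higher in A than in B, as were 5 of the 8 genes described and 7 of 9 of the one-carbon list. The other way, 13 of 17 other ATF4 targets, 8 of 11 transporters and 12 of 14 folding genes were lower in A, against 50.8% of all features. These counts use plain means over arrays, in which dyes are not balanced. The lists also share genes, such as Slc6a9 between targets and transporters and Herpud1 between targets and folding genes. Their counts are thus not independent. With dyes balanced, 3 of the 6 genes described that were tested were higher in A and 3 lower. For transporters so tested, 4 were lower in A and 3 higher, and for other ATF4 targets 7 and 4. Folding genes had 6 lower and 1 higher. The synthetases and the one-carbon list each had 1 lower and 5 higher.

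Of 7 tested genes of endoplasmic reticulum folding, 3 fell, 0 rose and 4 did not pass, with a median of -0.77, against 4.54% lower and 2.25% higher among all features. Pdia6 and Ero1a, which form disulphide bonds, had -2.37 ± 0.74 and -1.77 ± 0.77 (SD, n = 2), with adjusted p of 0.000235 and 0.00225 by limma. Without dim spots Pdia6 kept its call, while Ero1a, like Dnajb11 below, did not enter the balanced test. Dnajb11, a chaperone named after its value was seen, had -0.77 ± 0.11 (SD, n = 2; adjusted p = 0.0483 by limma) and lost its call on leaving out any of A3, B1 or B2 (adjusted p 0.186, 0.128 and 0.152 by limma), on scaling to equal spread (0.0930) and on quantile normalization (0.0800). With missing arrays allowed Creld2 and Herpud1 fell too, Creld2 with -2.85 and -2.70 on A1 and A2 and -1.43 and -0.90 in preparation B (adjusted p = 0.0143 by limma), though not without A2 (adjusted p = 0.0576 by limma), with robust variance estimates (0.0580) or without dim spots (0.0866). Trib3 had the sign of this list in preparation A, and the other 5 genes in the balanced test had estimates above 0. In preparation A the folding genes had a median of -1.49 and the 8 genes one of 0.40, against -0.34 and 0.00 in preparation B. These came from plain means over arrays, in which dyes do not cancel, and Asns and Slc3a2 had 1 array each in B. With dyes balanced, the 7 tested folding genes had medians of -1.38 in A and -0.37 in B. The 6 genes in that test had 0.27 and 0.14. The contrast between lists was not tested.

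**Figure D4:**
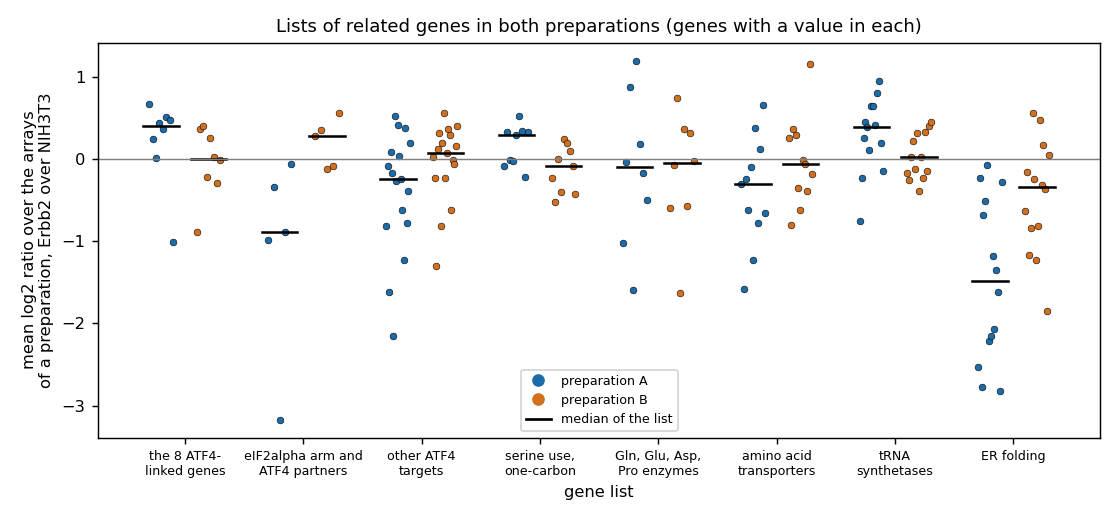
Each point is the mean log2 ratio of 1 gene over the arrays of preparation A (blue) or B (orange), by gene list (horizontal axis), for genes with a value in each preparation; black bars are list medians. The folding genes have a median of -1.49 in A and -0.34 in B, and the 8 ATF4-linked genes 0.40 and 0.00. Dyes are not balanced in these means. With dyes balanced, the 7 tested folding genes have medians of -1.38 and -0.37, and 6 of the 8 genes 0.27 and 0.14.

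The genes most like each of these in their ratios were found by the root mean square difference over the same arrays, among 2006 other genes with values on all 5 arrays or 2091 on the 4 of Asns. Nearest to Trib3 was Ppp1r15a, at 0.22, followed by Ston1 at 0.24. Nearest to Shmt2 were Syngr2 at 0.12 and Rars, the arginyl-tRNA synthetase, at 0.14. Rars had 0.46, 1.07 and 0.39 in preparation A and 0.47 and -0.42 in B, which shares with Shmt2 the high A2 and the low B2. Nearest to Asns were Cdk1 at 0.12 and Gorasp2 at 0.14, with -0.82 and -0.89 on B2. On B1, where Asns had no value, Cdk1 had 0.305 and Gorasp2 0.118, both above 0. Psat1 had Wdr18 (0.16) and Cdk14 (0.18), Phgdh had Rasa2 (0.15) and Zswim8 (0.20), Psph had Sfr1 and Tsacc (both 0.12), and Atf4 had Txlna (0.11) and Fam104a (0.12). With 4 or 5 points that share arrays and dyes, these distances are descriptions only.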

How the data were processed

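Per the labels, the authors read spots with GenePix software, took mean intensities less background and scaled each array to a median ratio of 1. What they deposited was read from the values as log2 dye ratios, and the rule behind empty values is not stated. Arrays with Erbb2 in Cy3 were turned in sign. Probes of 1 symbol (11723 of 20205) were averaged to genes. Preparation means, with dye orientations averaged first, were tested against 0 with limma 3.58.1 (R 4.3.3), with 1 residual and 10.2 prior degrees of freedom. Preparations were compared on 5 arrays with a dye term. P-values were adjusted by Benjamini-Hochberg over all features, at a threshold of 0.05. Procedures were tested on simulated data with noise per array and no added spread between preparations. Of the calls, 8.06% between cell lines and 6.62% between preparations were false. Changes of 0.5, 1 and 2 were found in 12.2%, 83.7% and 100% of changed features between cell lines. Between preparations the shares were 0.67%, 4.55% and 65.8%. Named list genes are up to 4 past the threshold per list, or else up to 2 with 1 sign on 3 or more arrays. Alternatives covered normalization, probes, variance, dye, threshold and each array left out; leaving out dim spots was added after seeing the data. The genes and lists were chosen with earlier results of these data known. Figures used matplotlib 3.10.9.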

Additional observations from a re-analysis of the deposited data

Results flagged for a closer look

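In 19 named genes with values on 4 or 5 arrays, 1 array stood apart from the others in Psph and Asns, and chance does this in about 1 in 20 groups. Psph had 0.78 on A1 against 0.13 to 0.29 elsewhere. Asns had -0.88 on B2, its only array of preparation B, against 0.58 to 0.77 on the arrays of preparation A. In Asns a lone array therefore cannot be told apart from a difference between preparations. Slc3a2 lay above 0 on both its arrays of preparation A and below 0 on its array of B, a difference of 0.77 that was not tested.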

How the results depend on the processing

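Under the alternatives run, none of the 8 genes passed between cell lines and none of the 7 tested passed between preparations. Trib3 kept its sign throughout, from -0.64 to -0.40 between cell lines (adjusted p 0.109 to 0.57 by limma) and from -1.39 to -0.77 between preparations (adjusted p 0.239 to 0.998 by limma). So did Atf4 and Psph between cell lines. Estimates near 0 changed sign: Psat1 without A2 (-0.08) or B1 (-0.15), Shmt2 without B1 (-0.0332), Phgdh by 1 probe alone (-0.0016), without B2 (-0.0285) or without dim spots (-0.0287), Slc3a2 without A2 or without dim spots (both -0.0198), and Asns on 5 arrays with a dye term (0.28). Between preparations this held for Atf4 without B1 (0.0398), Phgdh without A3 or B2 (both 0.19) and Psph without A1 (-0.10) or B1 (-0.08), after scaling (-0.0027) and after quantile normalization (-0.0056). With 1 array left out, the highest cell line estimates were 0.27 (Psat1), 0.32 (Phgdh), 0.47 (Shmt2) and 0.20 (Slc3a2), and preparation differences ranged from -0.25 for Atf4, from -1.22 for Phgdh and up to 0.21 for Psph, from 0.29 to 0.70 for Psat1 and from 0.20 to 0.56 for Shmt2. The 332 calls between cell lines became 120 at a threshold of 0.01, 136 after scaling, 193 after quantile normalization, 544 by probe, 194 without dim spots and 198 to 498 with 1 array left out (219 without A3, 211 without B1, 198 without B2). The 241 calls with missing arrays allowed became, in the same order, 85, 149, 279, 554 and 74. They became 557 on 5 arrays with a dye term and 86 to 316 with 1 array left out (86 without A2, 153 without B1). Preparation differences numbered 1 (4 without dim spots, 1 to 25 with 1 array left out) and, on 4 or more arrays, 2 (1 without dim spots, 1 to 25), with 25 in both cases without A1 or without A2. With the repetition number as a replicate block the count was 1 in both. Deviations correlated at 0.03 for A1 with B1, at -0.37 for A2 with B2 and at 0.42 for A3 with B2. Since A2 and B2 had opposite dyes and A3 and B2 the same, this cannot show whether the number pairs samples. Low spot signals may limit Psat1, Shmt2, Phgdh, Atf4 and Slc3a2; no intensities were used here.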

Other observations

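Further genes of nitrogen metabolism, chosen after their values were seen, kept to 1 side of 0 wherever they were measured and did not pass limma's test. Glul, which makes glutamine, had 0.85 on A2, 1.53 on A3, 0.40 on B1 and 0.34 on B2 (mean 0.78, adjusted p = 0.0768 by limma). Ass1, the argininosuccinate synthase that consumes aspartate, had 0.65 and 1.10 on A1 and A2 and 1.31 and 0.17 on B1 and B2. Asnsd1 had -0.82, -1.23 and -0.59 on A1, A2 and B1. Each of these arrays had Erbb2 in Cy3, so a dye effect cannot be told apart from the Asnsd1 ratio. Among the 2872 features with a value on all 5 arrays, 24.0% kept to 1 side of 0. That share was not counted for features on fewer arrays, as these genes were. Glul was thus above 0 where Glud1, which releases ammonium from glutamate, was below 0 on the same arrays.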
